A study of Mus musculus with 16 samples.

Results

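Yolk sacs of mice homozygous for a deletion of exon 6 of rudhira (symbol Bcas3) were compared with wild-type yolk sacs, 2 RNA samples per genotype, each read on 2 Illumina MouseWG-6 v2 arrays. These 4 samples and 8 arrays are the yolk sacs of a series of 8 samples and 16 arrays that also holds the embryos of the same conceptuses. They were chosen by their tissue and genotype labels, with no use of measured values. All mice were C57BL/6J, taken at 9.5 days post coitum from crosses of heterozygotes and genotyped from the embryonic tail: the control group is +/+ and the mutant group is -/-, and no other allele or agent is named. By the labels mutants were growth retarded with abnormal vessels, so the comparison holds differences of growth as well as of genotype. Repeat arrays of 1 RNA were averaged, so n = 2 per group throughout, and a level below is the log2 of the array intensity after normalization. Levels of different genes come from different probes and serve only to sort genes by brightness, not to compare their abundance.

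The yolk sac at this stage is a bilayer. Its outer visceral endoderm takes up maternal protein by endocytosis and secretes the serum proteins that the liver makes later. Its inner mesoderm forms blood islands, from which primitive red cells and the first endothelial tubes arise, and a mesothelial lining. Rudhira is a cytoskeletal protein of endothelial and early red cells that binds microtubules and vimentin filaments, and in mouse endothelial cells it acts in polarity and directed migration together with the GTPase Cdc42. In whole yolk sac RNA, fewer cells of a type and less RNA per cell cannot be told apart.

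The 8 yolk sac arrays detected 17912 to 19323 of 45281 probes, repeat arrays correlated at 0.996 to 0.997 across the tested genes, and the number of arrays limits the precision of all values. The mutant yolk sac arrays were dimmer before normalization, with a 75th percentile of the signal of 67 to 74.8 against 97.6 to 140.7 on the wild-type arrays, and the part of this difference in the results was not tested. The tissue label held: the visceral endoderm transcripts Apom, Apoa1, Ttr and Apoa2 had levels of 14.02 to 14.70 in each of the 4 samples, and the embryonic globins Hbb-y, Hbb-bh1 and Hba-x 14.50 to 14.80. Of 18 tested markers of neural tissue and somites 5 were detected in yolk sac, and of 18 markers of heart muscle 7. In the fit the embryos entered only through the estimate of the spread and the test of tissue difference. Before it, embryo arrays also entered the probe filter, the quantile normalization and the choice of 1 probe per gene. Of the 11334 tested genes 10341 were detected on at least 4 of 8 yolk sac arrays and 567 on 0. The series' design text lists only 1 embryo of each genotype as used. One of the embryos, the library labelled mutant embryo 2, gave Bcas3 signals of 721.9 and 606.6, above the 301.1 to 433 of wild-type embryos, so values with and without it are given where it matters.

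Bcas3 itself was read by a probe detected on all yolk sac arrays and by another that was not detected. Signals of the detected probe were 771.6 and 747.1 on the arrays of wild-type yolk sac 1 and 1118.7 and 1370 on those of wild-type yolk sac 2. They were 243.6 and 223.6 for mutant yolk sac 1 and 270 and 286 for mutant yolk sac 2, so the groups did not overlap. After normalization the Bcas3 levels were 9.61 and 9.90 in wild type and 8.44 and 8.53 in mutants, a change of -1.27 on the log2 scale (SE 0.33) that did not pass the threshold (limma adjusted p = 0.0992). That SE includes the spread of the embryos. With the yolk sacs fitted alone the SE was 0.14, and Bcas3 did not pass there either (limma adjusted p = 0.146). Whether the probe lies inside the deleted exon is not known here. The 20 tested genes on each side of Bcas3 along chromosome 11 had a median change of -0.02 (from -1.28 for Mpo, the farthest on 1 side, to 0.54 for Tspoap1). The nearest tested neighbours, the phosphatase gene Ppm1d and the transcription factor gene Tbx2, stood at -0.20 and 0.07. Of these 40 genes 2 passed, beside 1.26% of all tested genes. Both were falls: the chemokine gene Ccl9 at -0.93 and 1110028F11Rik at -0.74, which lie 18 and 17 tested genes away.

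Across the transcriptome most genes lay close to no change. Over the 11334 tested genes the log2 change ran from -0.16 at percentile 25 to 0.15 at percentile 75, with a median of 0.00. Past a 1.5-fold change lay 202 genes upward and 273 downward, and past 2-fold 29 and 39. In the limma fit at an adjusted p under 0.05, 143 genes passed, 1.26% of those tested: 64 rose (0.565%) and 79 fell (0.697%). Rises ran from 0.51 to 1.24 (median 0.71) and falls reached -1.80 (median -0.77), with adjusted p from 0.0340 to 0.0498. A further view needs no model: both mutants lay above both wild types for 2699 genes (23.8%) and below both for 2735 (24.1%). The groups did not overlap in any of the 143 called genes, so such separation is no further evidence for a called gene. At an unadjusted p under 0.05 stood 1108 genes that were higher (9.78%) and 1261 that were lower (11.1%). These shares set the scale for the lists below, to be read beside each list's own count.

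Called genes were found at all levels. With the tested genes cut by yolk sac level into 4 bins of like size, 19 rose and 18 fell in the lowest, 27 and 35 in the next, 14 and 13 in the next, and in the brightest bin, at levels of 9.52 to 14.88, 4 rose and 13 fell. The median change per bin stayed between -0.01 and 0.02, and the SD of the change was 0.27, 0.33, 0.29 and 0.23. Among the brightest called genes, Coro1c, an actin-binding coronin, was at 11.62 and 11.73 in wild type and 10.86 and 10.95 in mutants, and it fell by 0.77 (SE 0.10). Macroh2a1, a histone variant of repressed chromatin, was at 9.78 and 9.78 against 10.36 and 10.36 and rose by 0.58 (SE 0.09). Its other probes gave 0.03 and -0.17. The first of these was of like brightness, at 9.85 and 10.02 against 9.98 and 9.94 with overlapping groups, so the rise depends on the probe. By the called probes replicates lay close together and the genotypes did not overlap in either gene.

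**Figure D1:**
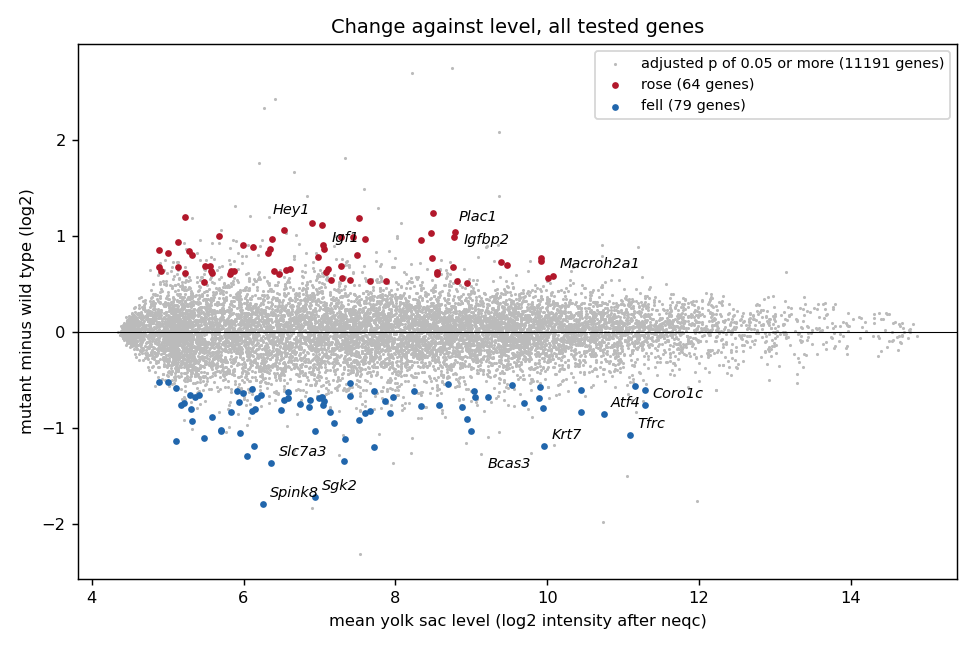
Each point is a tested gene, with its mean yolk sac level on the x axis (log2 intensity after neqc) and mutant minus wild type on the y axis (log2). Red points are the 64 genes that rose, blue points the 79 that fell and grey points the others; some grey points lie as far from 0 as called ones.

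Samples of 1 genotype also differed from each other. The SD over genes of the genotype change was 0.282, of wild type 1 minus wild type 2 0.275, and of mutant 1 minus mutant 2 0.290. The first is between means of 2 samples, for which the pair differences alone would give 0.200. Over 1 log2 unit apart were 103 genes in the wild-type pair, 63 in the mutant pair and 68 between the genotype means. No called gene kept its call in limma when either wild-type sample or the second mutant one was left out. Without mutant yolk sac 1, 41 of the 143 kept it. These 41 include Hey1, Sox7, Igf1, Igfbp2, Igfbp7, Atf4, Nupr1, Ppbp and Hoxb6.

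**Figure D2:**
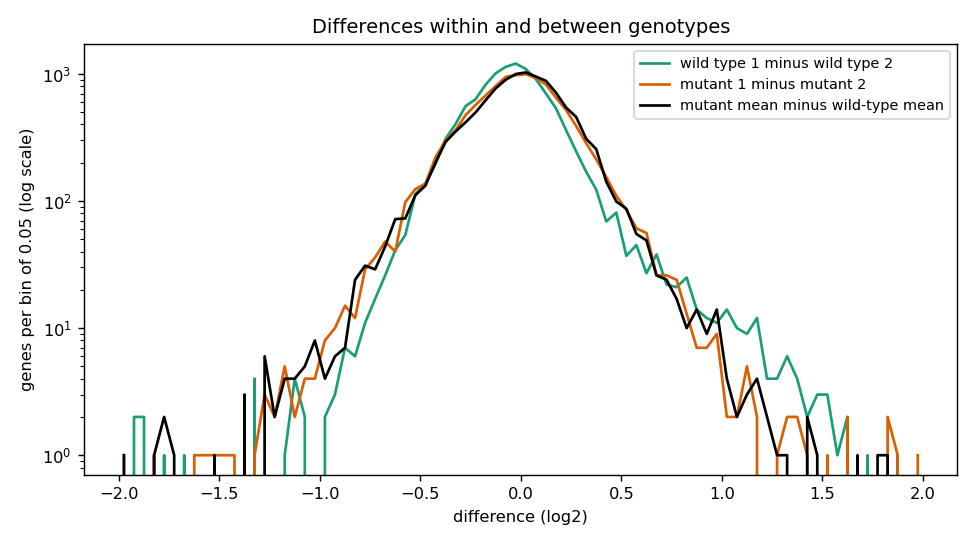
Number of tested genes (y axis, log scale) by log2 difference in bins of 0.05 (x axis) for the wild-type pair, the mutant pair and the genotype means; genes past 2 log2 units lie outside the plot. Their SDs are 0.275, 0.290 and 0.282, the last being a difference between means of 2 samples, for which the pair differences alone would give 0.200.

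The split between rises and falls moved with the scaling, beside the 44.8% of calls that rose under quantile normalization. It was 4.16% with each array centred on the median of all probes, 61.7% with the median of the kept probes, 63.6% with no background correction together with 75th percentile scaling and 67.3% with the authors' processed values. The median change of all tested genes was -0.23, 0.09, 0.08 and 0.10 under these scalings, so list medians below are also given relative to that of all tested genes. Under normexp with offset 50, 75th percentile scaling without background correction, median scaling over all probes and the authors' values alike, 10 genes kept their call. These were the rises Ptgis, Igf1, Cd109, Igfbp2, Trbv13-2 and Smim10l2a and the falls Cebpa, Tnnt3, Golph3l and Nupr1. Of these Cebpa and Tnnt3 lost it with the median of the kept probes (adjusted p = 0.0698 and 0.0627). Neither was detected on any mutant array, and Trbv13-2 and Smim10l2a were not detected on any wild-type array. Without background correction signals under 1 were set to 1. In that setting Trbv13-2 changed by 4.57, against 0.85 after neqc, so its kept call there leans on the floor. Of the 143 genes 30 belong to at least 1 of 33 gene lists and 113 to none.

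Endothelial genes were more often higher than lower. Of 42 tested members 3 rose, 0 fell and 39 did not pass in limma, beside 0.565% rising and 0.697% falling of all genes. At an unadjusted limma p under 0.05, 17 were higher and 3 lower, beside 9.78% and 11.1% of all genes. Both mutants lay above both wild types for 21 and below for 6, beside 23.8% and 24.1% of all genes. The median change was 0.27, and relative to all genes it ran from 0.24 to 0.27 over the 6 scalings and from 0.25 to 0.34 with 1 yolk sac left out. Sox7, a transcription factor of early endothelium, was at 7.87 and 7.85 in wild type and 8.65 and 8.99 in mutants and rose by 0.96 (SE 0.14). Other Sox7 probes gave 0.99 and -0.11. Adgrl4, an adhesion receptor of endothelium, was at 5.73 and 6.06 against 6.91 and 6.81 and rose by 0.97 (SE 0.13). Hey1, a Notch-induced repressor of arterial endothelium, was at 6.38 and 6.30 against 7.20 and 7.74 (change 1.13, SE 0.16). In all of these the genotypes did not overlap, as in every called gene. The fit's adjusted p was 0.0390 for Sox7 and Hey1 and 0.0388 for Adgrl4.

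None of the 4 brightest endothelial probes passed. Stab1, a scavenger receptor of sinusoidal endothelium, stood at 0.34 (adjusted p = 0.188), Egfl7, a secreted endothelial factor, at 0.47 (0.118), Plvap, of endothelial diaphragms, at 0.03 (0.923) and Ramp2, a receptor partner of adrenomedullin signalling, at -0.09 (0.743). Members chosen after their values were seen ran in both directions. The junction receptor Pecam1 was at 7.95 and 7.88 in wild type and 8.40 and 8.49 in mutants (0.53, adjusted p = 0.05001, just over the threshold), and Etv2, which specifies blood and endothelial precursors, was at 5.01 and 5.23 against 5.93 and 6.16 (0.93, adjusted p = 0.0940). The hyaluronan scavenger receptor Stab2 was at 8.44 and 8.67 against 7.88 and 7.74 (-0.75, adjusted p = 0.0859). Venous Ephb4 stood at -0.38 (0.109) and arterial Efnb2 at -0.17 (0.478). Markers of trophoblast, given further on, were also higher on average in mutants (mean level 7.40 and 8.20 in wild type, 8.34 and 8.32 in mutants), and their part in the endothelial values was not tested.

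Ligands and receptors of vessel growth were followed next. Of 39 tested genes of VEGF, angiopoietin and guidance signalling 2 rose and 0 fell, beside 0.565% and 0.697% of all genes. At an unadjusted limma p under 0.05, 11 were higher and 2 lower, beside 9.78% and 11.1%. Both mutants lay above for 18 and below for 5, beside 23.8% and 24.1% of all genes. The median was 0.15 (relative 0.12 to 0.16 over scalings). The ligand Vegfc, which acts on the receptor Flt4 and on Kdr, was at 7.29 and 6.94 in wild type and 7.99 and 8.18 in mutants and rose by 0.97 (SE 0.15, adjusted p = 0.0437). Ptgis, which makes the vasodilator prostacyclin, was at 6.95 and 6.90 against 7.97 and 8.24 and rose by 1.18 (SE 0.12). Both genes separated the genotypes without overlap. The main ligand Vegfa stood at 0.00 (8.81 and 9.04 against 8.75 and 9.10), Kdr at 0.10 and Flt4 at 0.23, and the coreceptor Nrp1 at 0.01, none of which passed. In the Notch pathway 1 of 20 tested genes rose, Hey1, and 0 fell, beside 0.565% and 0.697% of all genes. Both mutants lay above for 7 and below for 1, beside 23.8% and 24.1% of all genes. The median was 0.15, and relative to all genes it was 0.07 to 0.23 over scalings. With 1 yolk sac left out the relative median was 0.05 to 0.12, lowest without wild-type yolk sac 1. The receptors Notch1 and Notch4 stood at -0.30 and 0.32, the ligand Dll4 at 0.09, and the targets Hes1 and Nrarp at 0.30 and 0.36, and none passed.

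Insulin-like growth factor genes moved in both directions. Of 16 tested members 2 rose and 1 fell, beside 0.565% and 0.697% of all genes, and the median was 0.03. The growth factor Igf1 was at 6.47 and 6.49 in wild type and 7.42 and 7.76 in mutants and rose by 1.10 (SE 0.13), and its second probe gave 0.93. The binding protein Igfbp2 was at 8.37 and 8.19 against 9.26 and 9.28 and rose by 0.99 (SE 0.11, adjusted p = 0.0340). Igfbp7, a binding protein deposited in vessel walls, was at 8.28 and 8.37 against 7.01 and 7.23 and fell by 1.21 (SE 0.13). The genotypes were apart in all 3. Igfbp3, at 7.56 and 6.70 against 8.24 and 8.59, stood at 1.29 with a wide wild-type spread and did not pass (adjusted p = 0.0608). Igf2, the growth factor that dominates fetal tissues, stood at -0.10, Igfbp4 at -0.02 and the RNA-binding protein genes Igf2bp1 and Igf2bp3 at -0.06 and -0.13.

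**Figure D3:**
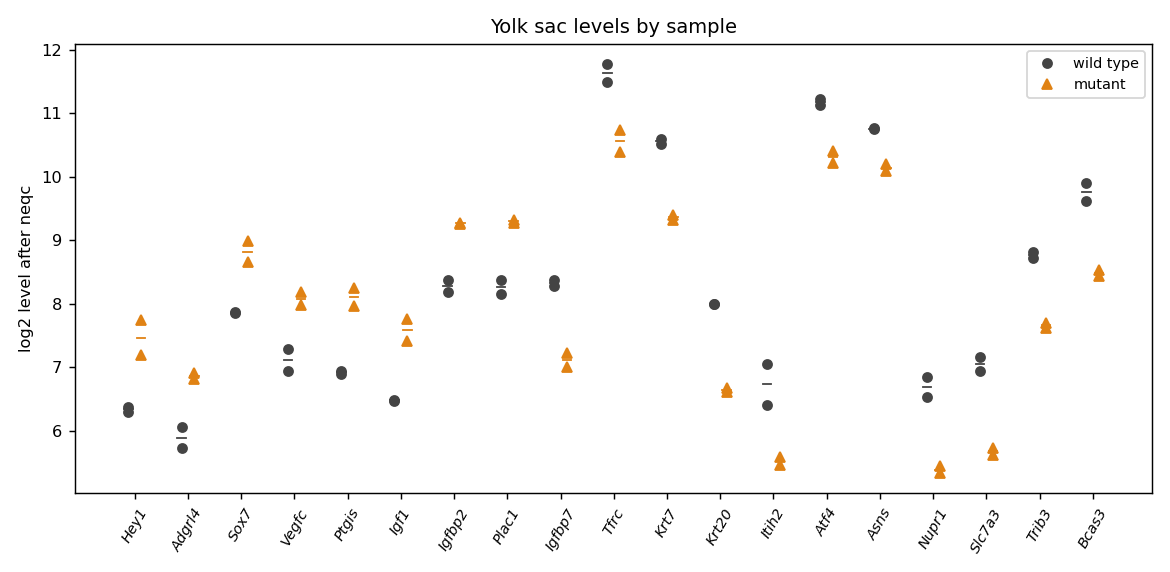
Log2 level after neqc (y axis) of 19 genes (x axis) in each wild-type yolk sac (grey circles) and each mutant yolk sac (orange triangles), with a short line at each group mean (n = 2). The genotypes do not overlap for any of the 19, which holds for every called gene. Heights of different genes come from different probes and cannot be compared.

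Visceral endoderm genes had a negative median, with 1 gene past the threshold. Of 33 tested serum protein and transcription factor genes 1 fell and 0 rose (5 lower and 0 higher at an unadjusted p under 0.05, beside 11.1% and 9.78% of all genes). Both mutants lay below both wild types for 20 and above for 3, beside 24.1% and 23.8% of all genes. The median was -0.34, the lowest of the 33 lists after quantile normalization (relative to all genes -0.34 to -0.21 over scalings, -0.35 to -0.28 with 1 yolk sac left out). Itih2, a heavy chain of the serum inter-alpha-trypsin inhibitor, was at 6.42 and 7.05 in wild type and 5.60 and 5.47 in mutants and fell by 1.20 (SE 0.20). The members with the highest mean level stood near 0: Apom at 0.08, Apoa1 at -0.06, Apoa2 at -0.06 and Ttr at -0.21. Of members chosen after their values were seen, Kng1, which encodes kininogen, was at 10.58 and 10.79 against 9.60 and 9.40 (-1.18), the prothrombin gene F2 at 9.55 and 9.61 against 8.91 and 8.59 (-0.83), and Hnf4a, a transcription factor of the endoderm, at a mean of 10.83 against 10.16 (-0.67). None of these 3 passed (adjusted p = 0.364, 0.172 and 0.573). Cited1, a coregulator of this layer, stood at 0.41 and Sox17 at 0.42.

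A limit of the fit bears on this layer and on some other lists. The endoderm genes had a median SE of 0.676 in the fit of all 8 samples, where embryo samples differed in them, and 0.139 in the yolk sacs alone, beside 0.123 and 0.136 for all tested genes. In the same order the median SE was 0.261 and 0.167 for primitive erythroid genes. It was 0.206 and 0.129 for keratins and 0.217 and 0.140 for amino acid and nutrient transporters. With the yolk sacs fitted alone no gene of any kind passed (lowest adjusted p = 0.146). Of the other falls, Kng2, a second kininogen gene, was at 7.77 and 8.01 in wild type and 6.94 and 6.61 in mutants (-1.12, SE 0.14). Cebpa, a transcription factor of liver and fat, was at 5.58 and 5.59 and was not detected on any mutant array, which makes it at least 1.45-fold lower. That bound sets the wild-type mean against the lowest signal counted as detected on each mutant array, or the gene's own value where that was higher. Mlxipl, a glucose-responsive transcription factor, fell by 0.67 (SE 0.11), while its other probe gave -0.08 with overlapping groups.

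Keratins and nutrient transporters each held 2 falls. Of 7 tested keratins 2 fell and 0 rose, beside 0.697% and 0.565% of all genes. The median was -0.31 (relative -0.31 to -0.15 over scalings, and -0.20 in itself without mutant yolk sac 1). Krt7, a keratin of simple epithelia, was at 10.59 and 10.52 against 9.32 and 9.40 and fell by 1.20 (SE 0.15), and Krt20, a keratin of gut-like epithelium, was at 8.00 and 8.00 against 6.62 and 6.67 and fell by 1.35 (SE 0.19). The widely used pair of simple epithelia, Krt8 and Krt18, stood at -0.31 and -0.46 without passing, and Krt19 and Krt23 were higher at 0.33 and 0.82, also without passing. Among 26 tested amino acid and nutrient transporters 2 fell and 0 rose, beside 0.697% and 0.565% of all genes. Slc7a3, a carrier of cationic amino acids, fell by 1.37, and Slc5a1, a sodium-glucose cotransporter, by 0.66 (5.80 and 5.70 against 4.97 and 5.20). The glucose carriers Slc2a1 and Slc2a3 stood at 0.13 and -0.06. Outside the lists the epithelial transcription factor gene Grhl2 fell by 1.03 (6.02 and 6.41 against 5.33 and 5.03), the tight junction gene Cldn1 by 0.68 (7.41 and 7.35 against 6.57 and 6.82) and Slc9a3, a sodium-proton exchanger of absorptive epithelium, by 0.71 (7.28 and 7.19 against 6.61 and 6.44).

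Not all epithelial genes were lower. Of 38 tested genes of endocytic uptake and lysosomes only Scarb2, a lysosomal membrane protein gene, passed, with a fall of 0.60 (6.37 and 6.46 against 5.74 and 5.88), and the median was -0.01, a sign that turned with scaling. Cubn and Lrp2, the multiligand receptors of this layer, stood at -0.42 and -0.40, their partners Amn and Dab2 at 0.18 and -0.01. Of 35 genes of integrins, cadherins and junctions 1 rose, the claudin gene Cldn9, by 0.60 (5.47 and 5.59 against 6.17 and 6.09). The brightest members of that list, Cldn6, Ctnna1, Gja1 and Ctnnb1, stood between -0.23 and 0.07. The largest falls among the called genes were the kinase gene Sgk2, at 7.69 and 7.92 against 6.31 and 5.85 (-1.73, SE 0.23), and Spink8, a Kazal-type protease inhibitor gene, at 6.89 and 7.41 against 5.56 and 5.15 (-1.80, SE 0.20). For both, the mutants lay more than 1 log2 unit below the wild types.

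**Figure D4:**
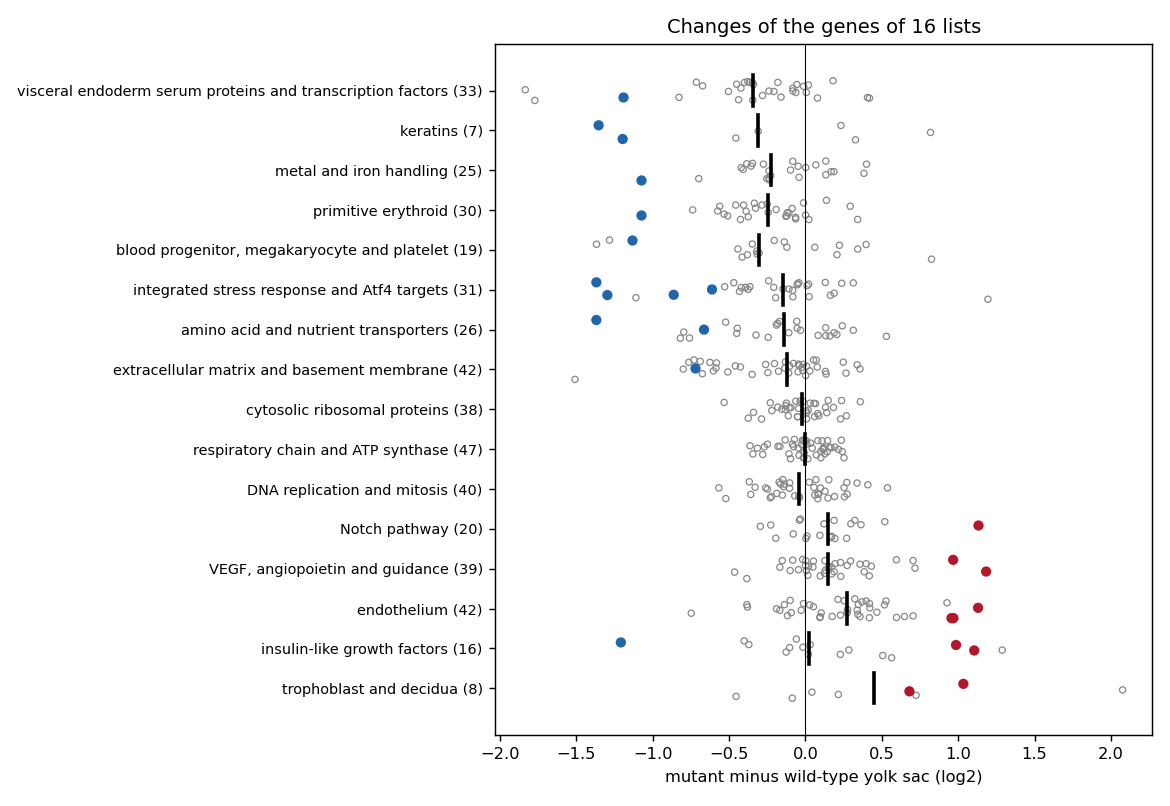
Log2 change of each tested gene (x axis, mutant minus wild type) in 16 of the lists (y axis, with the number of genes), with genes that rose in red, genes that fell in blue, others open, and the list median as a black bar. Visceral endoderm, keratin, erythroid and platelet lists lie left of 0 and the endothelial, VEGF and trophoblast lists right of it, with few single genes past the threshold in any.

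Blood genes had negative medians, with values that differed between the mutant samples. Of 30 tested primitive erythroid genes 1 fell and 0 rose (1 lower and 0 higher at an unadjusted p under 0.05, beside 11.1% and 9.78% of all genes). Their median SE was 0.26 in the fit of all 8 samples and 0.17 in the yolk sacs alone. For all tested genes it was 0.12 and 0.14. Both mutants lay below for 15 and above for 1, beside 24.1% and 23.8% of all genes. The groups overlapped for 14, and the median change was -0.25. The fall was Tfrc, the transferrin receptor, at 11.50 and 11.77 in wild type and 10.73 and 10.38 in mutants (-1.08, SE 0.19), and its second probe gave -1.01. The globins Hbb-y, Hbb-bh1, Hba-x and Hba-a1 stood between -0.19 and 0.02. Slc4a1, the red cell anion exchanger, was at 12.70 and 12.61 against 11.84 and 12.55, so the second mutant lay next to the wild types. The spectrin gene Sptb was likewise at 9.58 and 9.69 against 8.37 and 9.43. The relative list median was accordingly -0.11 without mutant yolk sac 1 and -0.40 without mutant yolk sac 2.

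The opposite sample was low in platelet and myeloid genes. Of 19 tested genes of blood progenitors, megakaryocytes and platelets 1 fell and 0 rose, with a median of -0.30 (-0.15 without wild-type yolk sac 2, -0.12 without mutant yolk sac 2, and relative to all genes -0.52 to -0.19 over scalings). Ppbp, a platelet chemokine, was at 5.62 and 5.74 in wild type and was not detected on any mutant array, at least 1.55-fold lower. Pf4, another platelet chemokine, was at 7.81 and 6.77 in mutants against a wild-type mean of 8.66 (-1.37, adjusted p = 0.140), and the granule enzyme gene Mpo at 7.74 and 8.05 against 7.51 and 5.71, so mutant yolk sac 2 was the low one in both. The progenitor receptor Kit stood the other way, at 7.23 and 7.43 against 7.88 and 8.43 (0.83, adjusted p = 0.118). Of 10 tested macrophage genes none passed (2 higher and 2 lower unadjusted), the nearest being Csf1r, the macrophage growth factor receptor gene, at -0.72 (adjusted p = 0.0547). Iron genes shared Tfrc: of 25 tested 1 fell and 0 rose, with a median of -0.23 that was -0.15 without wild-type yolk sac 1, -0.07 without mutant yolk sac 1 and 0.02 with the authors' values (relative to all genes -0.23 to -0.08 over scalings), and the copper transporter gene Atp7a stood at -0.70 (9.14 and 9.23 against 8.48 and 8.49, adjusted p = 0.0506) while ferritin heavy chain, Fth1, stood at 0.13.

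Genes of the integrated stress response, through which the transcription factor Atf4 raises amino acid supply, had a negative median, with 4 genes past the threshold. Of 31 tested members 4 fell and 0 rose (12 lower and 0 higher at an unadjusted p under 0.05, beside 11.1% and 9.78% of all genes). Both mutants lay below for 18 and above for 4, beside 24.1% and 23.8% of all genes. The median was -0.15 (relative -0.18 to -0.14 over scalings, -0.20 to -0.15 with 1 yolk sac left out). The known binding element of Atf4 with C/EBP partners, TGATGNAA on either strand, was searched in the promoters of tested genes from 250 bases before to 50 after the RefSeq start (build GRCm38.p6), and 9174 of the 11334 genes had one. It was present in 2.64% of them and in 9 of 26 promoters of the list (34.6%), which holds genes known for this element. It was in 1 of 46 promoters of genes that rose (2.17%) and in 3 of 65 of genes that fell (4.62%). Within the list the 9 genes with the element had a median change of -0.11 and the 17 without it -0.15, so the median was no lower where these letters were found. The promoters of Asns, Nupr1 and Trib3 are shown, since these are the members with the element and the largest lower values, with the element in capitals and the rest in lower case, 5′ to 3′ on the gene's strand.
Asns chr6:7693160-7693459, minus strand: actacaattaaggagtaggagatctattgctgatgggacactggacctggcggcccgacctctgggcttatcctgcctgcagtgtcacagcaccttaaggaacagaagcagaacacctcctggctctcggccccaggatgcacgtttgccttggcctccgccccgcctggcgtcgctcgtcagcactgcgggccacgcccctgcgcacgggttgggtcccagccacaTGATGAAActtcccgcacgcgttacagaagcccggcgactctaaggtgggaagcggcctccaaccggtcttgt
Nupr1 chr7:126625421-126625720, minus strand: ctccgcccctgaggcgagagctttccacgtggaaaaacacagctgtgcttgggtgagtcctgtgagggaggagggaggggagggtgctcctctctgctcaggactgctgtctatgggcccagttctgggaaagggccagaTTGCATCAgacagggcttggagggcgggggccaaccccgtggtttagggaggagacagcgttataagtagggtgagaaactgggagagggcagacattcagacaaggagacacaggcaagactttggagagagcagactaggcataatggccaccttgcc
Trib3 chr2:152344011-152344310, minus strand: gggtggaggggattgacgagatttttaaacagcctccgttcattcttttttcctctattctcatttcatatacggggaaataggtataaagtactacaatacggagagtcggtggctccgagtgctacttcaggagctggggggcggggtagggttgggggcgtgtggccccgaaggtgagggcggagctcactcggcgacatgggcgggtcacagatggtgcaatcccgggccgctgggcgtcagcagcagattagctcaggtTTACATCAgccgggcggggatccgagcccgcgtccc

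Atf4 was at 11.12 and 11.22 in wild type and 10.40 and 10.22 in mutants and fell by 0.86 (SE 0.11, adjusted p = 0.0388), with its other kept probe at -0.23 and overlapping groups. Asns, asparagine synthetase, was at 10.74 and 10.77 against 10.08 and 10.20 and fell by 0.61 (SE 0.11), and its other probes gave -0.31 and -0.60. Nupr1, a stress-induced chromatin protein gene, was at 6.53 and 6.85 against 5.34 and 5.44 and fell by 1.30 (SE 0.14). All these pairs were apart. Slc7a3, already named among the carriers, was at 7.16 and 6.94 against 5.63 and 5.73. Trib3, a pseudokinase gene induced by Atf4, was at 8.82 and 8.73 against 7.70 and 7.63 and did not pass (-1.11, adjusted p = 0.0707). The stress factor genes Atf3 and Chac1 stood at -0.04 and -0.08, and Ddit4, an inhibitor of growth signalling, stood the other way at 1.19 (5.73 and 5.75 against 6.41 and 7.46, adjusted p = 0.306). Of the tRNA synthetase genes, Mars1 stood at -0.53 (adjusted p = 0.0525) and Gars at 0.13. Of 28 tested ER chaperones and heat shock genes 1 fell, the small heat shock protein gene Hspb1, by 1.04 (9.47 and 9.57 against 8.51 and 8.46), and the central ER chaperone gene Hspa5 stood at -0.02.

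Matrix genes had a negative median, with 1 gene past the threshold. Of 42 tested matrix and basement membrane genes 1 fell and 0 rose (13 lower and 1 higher at an unadjusted p under 0.05, beside 11.1% and 9.78% of all genes). Both mutants lay below for 17 and above for 1, beside 24.1% and 23.8% of all genes. The median was -0.12 (relative -0.14 to -0.09 over scalings and -0.20 to -0.09 with 1 yolk sac left out, nearest 0 without wild-type yolk sac 2). Col6a1, a chain of the beaded filament collagen, was at 7.45 and 7.39 against 6.65 and 6.74 and fell by 0.73 (SE 0.12). Col1a1, chosen after its values were seen, was at 11.67 and 11.96 against 10.47 and 10.14, a change of -1.51 with an SE of 0.62 that did not pass (adjusted p = 0.222). The basement membrane collagen genes Col4a1 and Col4a2 stood at 0.07 and -0.02 and the collagen chaperone gene Serpinh1 at -0.05. Col2a1 and Col9a1, cartilage collagens outside the list, fell by 1.02 (5.99 and 6.43 against 5.13 and 5.26) and 0.82 (6.83 and 6.97 against 6.27 and 5.90). Of 25 proteases and inhibitors 1 rose and 2 fell, beside 0.565% and 0.697% of all genes. Adam15 rose by 0.53, and its other probe gave -0.25. Spink8 and the membrane protease gene Mmp24 fell, the latter by 0.75 (7.04 and 7.21 against 6.30 and 6.45).

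Among genes of the cytoskeleton, to which rudhira is tied by function, Cdc42 fell. It was at 10.22 and 10.19 against 9.63 and 9.61 (-0.58, SE 0.09), but other Cdc42 probes gave 0.53 and 0.15, so the direction depends on the probe. The tubulin and actin genes Tuba1b, Actb and Tubb5 and the actin-branching complex gene Arpc5 stood between 0.02 and 0.20, and none passed. Vim, the filament protein to which rudhira binds, was at 10.45 and 10.07 against 10.66 and 10.77 (0.45, adjusted p = 0.148). Tubal3, an alpha-tubulin-like gene, fell by 1.04 (7.35 and 7.57 against 6.45 and 6.40) and Fblim1, a filamin-binding adaptor gene, rose by 0.99 (6.89 and 6.69 against 7.62 and 7.93).

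Trophoblast and decidual markers, which a yolk sac sample can carry from neighbouring tissue, also had a positive median. Of 8 tested markers 2 rose and 0 fell, beside 0.565% and 0.697% of all genes. Both mutants lay above for 4 and below for 1, beside 23.8% and 24.1% of all genes. The median of 0.45 was the highest of the 33 lists, but relative to all genes it was 0.04 without wild-type yolk sac 1. Plac1, a placental membrane protein gene, was at 8.37 and 8.16 against 9.32 and 9.28 and rose by 1.03 (SE 0.16), and Pparg, a nuclear receptor of placenta and fat, was at 5.10 and 5.33 against 5.82 and 5.98 and rose by 0.68 (SE 0.11). The placental hormone gene Prl2c2 was at 6.78 in wild-type yolk sac 1, 9.88 in wild-type yolk sac 2 and 10.71 and 10.11 in mutants, so the first wild type stood apart. Prl8a2 also had its lowest value there, at 7.15 and 9.57 against 8.83 and 9.34. Not all members were higher: Psg23 stood at 0.04 and Cdx2 at -0.09, and the lowest change in the list was -0.45. Averaged over the 8 genes, of 24 listed, the level was at 7.40 and 8.20 in wild type and 8.34 and 8.32 in mutants. The part of these markers in the other rises was not tested.

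Genes that differed most between samples of 1 genotype are given as a description, chosen after their values were seen. In the wild-type pair Emb, an adhesion protein gene, was at 12.40 and 8.61, against 13.33 and 12.85 in mutants, and the trophoblast hormone gene Prl2c3 was at 5.71 and 9.03 against 10.32 and 9.90. In the mutant pair Prl4a1, of the same family, was at 8.75 and 4.63, against 4.44 and 6.53 in wild type. Serpina1b, which encodes the serum protein alpha-1 antitrypsin, was at 12.46 in mutant yolk sac 1 and 9.71 in mutant yolk sac 2, against 12.89 and 12.82. Serpina1d was low in the same sample, at 11.28 and 8.19 against 11.57 and 11.88. Members of the Prl2c and Serpina1 families are near-identical in sequence, so a probe may read more than 1 of them. In the wild-type pair sample 1 was the higher one for 79 of the 103 genes over 1 log2 unit apart, and in the mutant pair for 30 of 63.

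Housekeeping functions gave no calls. None of 47 respiratory chain and ATP synthase genes, 38 cytosolic ribosomal protein genes, 40 replication and mitosis genes, 31 glycolysis and hypoxia genes, 21 cholesterol genes and 18 imprinted growth regulators passed in limma. At an unadjusted p under 0.05 these lists held 1 higher and 3 lower respiratory genes, 3 and 3 ribosomal ones and 6 and 6 replication ones. Their medians lay between -0.07 and 0.08, and the signs for respiratory chain, ribosomal, replication and imprinted genes turned under other scalings. None of 22 p53 targets passed (3 higher and 1 lower unadjusted). Both mutants lay above for 9 and below for 2, beside 23.8% and 24.1% of all genes. Cdkn1a, the cell cycle inhibitor gene, stood at 0.47 (8.57 and 8.36 against 8.89 and 8.98, adjusted p = 0.0832). Signalling by TGF-beta and BMP, with which rudhira has been linked in endothelial cells, had 0 of 39 genes past the threshold (3 higher and 4 lower unadjusted) and a median of -0.03. Tgfb2, a ligand, was the nearest at 6.14 and 6.06 against 5.09 and 5.43 (-0.84, adjusted p = 0.0506). None of 34 Wnt pathway genes and none of 20 mesothelial, smooth muscle and mesenchymal markers passed, with medians of 0.05 and 0.04. Of 24 Hox and Cdx genes 1 rose, Hoxb6, by 0.82 (5.93 and 5.91 against 6.61 and 6.87), next to Hoxb5 at 0.68 (adjusted p = 0.0832). Of 24 immediate early genes 1 rose, the phosphatase gene Dusp2, by 0.86 (5.95 and 5.89 against 6.74 and 6.82), while Fos and Egr1 stood at -0.54 and -0.20.

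**Figure D5:**
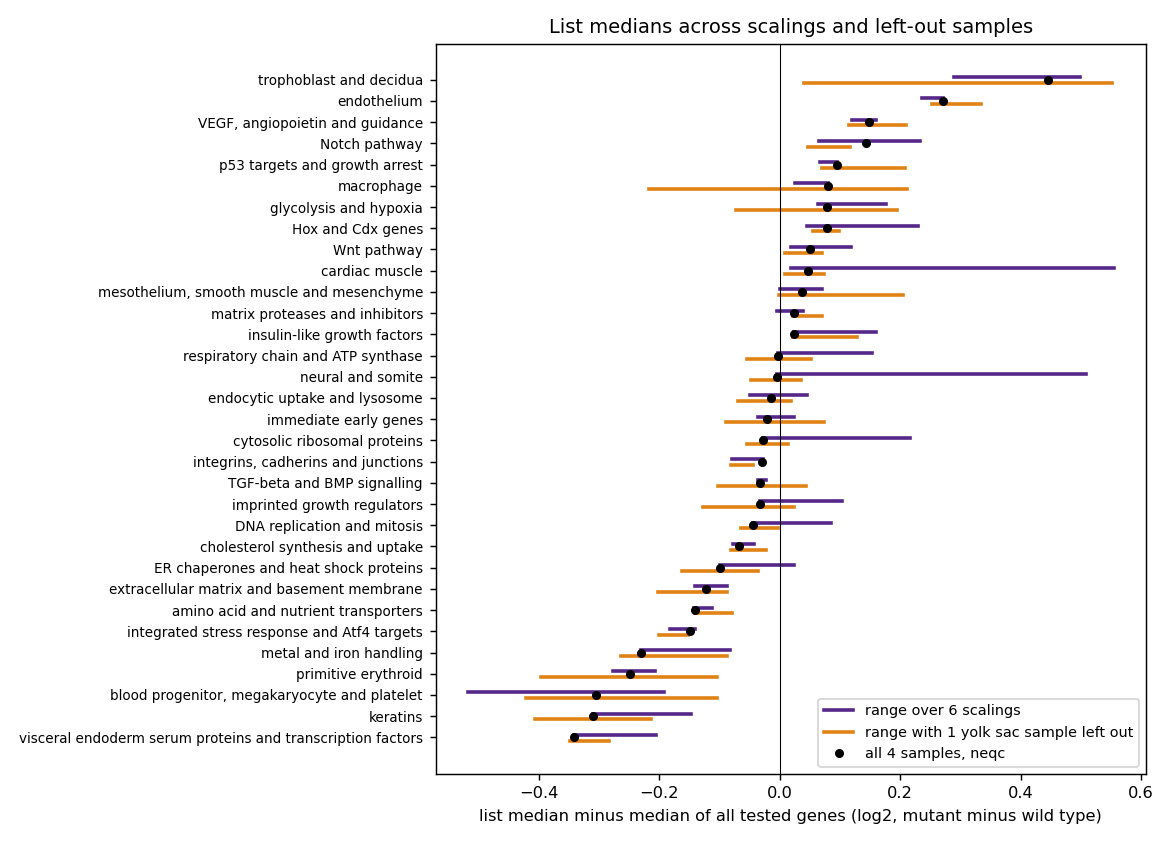
For each of 32 of the lists (y axis), the median log2 change minus that of all tested genes (x axis): black dots are all 4 yolk sacs after neqc, purple bars the range over 6 scalings and orange bars the range with 1 yolk sac sample left out. The endothelial list keeps 0.24 to 0.34 over both ranges and the visceral endoderm list -0.35 to -0.21, while the trophoblast list drops to 0.04 with 1 sample out.

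Rises outside the lists included genes of other tissues at modest levels. Cbln1, a secreted synaptic organizer gene, was at 7.86 and 7.89 in wild type and 8.90 and 9.33 in mutants and rose by 1.24 (SE 0.19), the largest rise among the called genes. Dppa5a, a gene of early pluripotent cells, was at 6.04 and 5.98 against 6.88 and 7.26 (1.06, SE 0.15), and Cd109, a membrane coreceptor gene, at 5.25 and 5.10 against 6.06 and 6.27 (0.99, SE 0.11). Retreg1, an ER turnover receptor gene, was at 8.01 and 7.91 against 8.78 and 9.20 (1.03, SE 0.17). The groups did not overlap in any of these. Fxyd6, an ion pump regulator gene, was among the tightest, at 9.53 and 9.53 against 10.29 and 10.30 (0.77, SE 0.08). Hmga2, a chromatin protein gene of growing tissue, was not detected on any wild-type array, and in mutants it was higher by at least 1.54-fold. The same held for Smim10l2a (at least 1.53-fold) and Trbv13-2 (at least 1.16-fold). Other Hmga2 probes gave 0.19 and 0.04, the latter with overlapping groups, and Hmga2 kept its call in 0 of 4 other normalizations. Among the falls Golph3l, a Golgi protein gene, was at 8.04 and 7.93 against 7.01 and 7.12 (-0.92, SE 0.10).

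Probes of 1 gene did not always agree. Of the 143 called genes 56 had a further kept probe, and of these 81 probes 57 had the same sign as the called one and 41 also separated the genotypes the same way. The coagulation inhibitor gene Tfpi fell by 0.91 by its brightest probe (9.42 and 9.39 against 8.54 and 8.44), while others gave -0.03 and 0.24. In Hedgehog signalling Gli3, a transcription factor gene, rose by 0.68 and Sufu, an inhibitor gene of the pathway, fell by 0.83, but another Gli3 probe gave -0.11 and the other Sufu probes 0.25 and 0.11. Snurf, a paternally expressed gene, rose by 0.74, with other probes at 1.16, 0.72 and -0.19.

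The yolk sac change was set beside that of the embryos, which share conceptuses with these yolk sacs. Of the 143 called genes 77 had an embryo change of the same sign, and 4 passed in embryo as well, 2 in the same and 2 in the opposite direction. The difference of the genotype effect between the tissues passed for 38 of 11334 genes (0.335%), of which 8 were among the 143. These were Igf1, Isl1 (not detected on any wild-type yolk sac array), Fxyd6, Grasp and Pik3r3 with a rise in yolk sac, and Arid3a, Myo5c and Ncam1 with a fall. For the other called genes a difference from the embryo was not shown. No gene passed that test without the library labelled mutant embryo 2 (1416 genes at an unadjusted p under 0.05), nor did any pass in yolk sac then (lowest adjusted p = 0.0830, 2120 unadjusted).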

How the data were processed

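RNA of 8 samples (embryo and yolk sac of 2 wild-type and 2 mutant conceptuses) was labelled as biotin cRNA and hybridized to 2 arrays each, per the labels' protocols. The deposited table holds background-subtracted intensity per probe, not scaled between arrays, which the authors gave for each array. Beside each intensity the authors deposited a score of 0 to 1 headed as a p-value. These scores did not follow the intensities by row (Spearman correlation 0.00157 to 0.0106), so they were matched by rank within each array, and a probe was counted as detected where 1 minus its score was under 0.05. The authors' processed values are log2, centred per tissue, by comparison with the intensities; for scanner software and normalization the sources used here give nothing.

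From the intensities, limma 3.58.1 in R 4.3.3 was used: neqc (normexp background from the detection values, offset 16, quantile), averaging of repeat arrays, and lmFit with eBayes over the 8 samples with 1 mean per group (4 residual degrees of freedom), two-sided, with Benjamini-Hochberg adjustment over 11334 genes and a threshold of 0.05. Kept were the 21193 probes detected on at least 4 of 16 arrays, and of these only probes with 1 symbol were read as genes. Of 45281 probes 34885 had 1 symbol, 18 several and 10378 none. A gene was read by its kept probe with the highest mean level. The p-values set the genotype difference against a residual spread pooled over all 4 groups, embryos included. The 2 samples of a group are different conceptuses, so this spread holds conceptus and technical differences together. Nothing in the labels says more of the samples than their conceptus numbers. An exact permutation test of 2 against 2 cannot reach 0.05.

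The text names Bcas3, called genes of a list, the 20 largest rises and falls, the 10 brightest called genes, up to 4 brightest members per list and members undetected in 1 group. Any other gene was chosen after its values were seen. The gene lists and members were chosen with earlier results of these data known. The values of 1 of the 33 lists are not reported here. Embryo and yolk sac of 1 number are 1 conceptus. Wild type and mutant share only the number. Promoters are RefSeq's (GRCm38.p6). The alternatives are background, normalization, probe filter, samples, arrays, probe choice, variance model and blocks.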

Additional observations from a re-analysis of the deposited data

Results flagged for a closer look

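Of the 38 genes whose genotype effect differed between yolk sac and embryo by the limma test of that difference, the 10 that are also named by the rule for genes of the text are given, as values only. The effect in yolk sac minus that in embryo was 2.41 for Stmn2 and 2.40 for Nefm, both neuronal cytoskeleton genes, with embryo changes of -1.92 and -2.12 and yolk sac changes of 0.49 and 0.28 that did not pass (adjusted p of the difference 0.0104 and 0.0124). It was 1.51 for Igf1 (adjusted p = 0.0331; yolk sac 1.10, embryo -0.40) and 1.45 for the transcription factor gene Isl1 (0.0124; 0.67 and -0.78). It was 1.08 for the PI3-kinase subunit gene Pik3r3, 1.04 for the scaffold gene Grasp and 0.95 for Fxyd6, each higher in mutant yolk sacs and lower in mutant embryos. It was -1.33 for the myosin gene Myo5c, -1.27 for the transcription factor gene Arid3a and -1.05 for the adhesion gene Ncam1, each lower in mutant yolk sacs and higher in mutant embryos. The Ncam1 and Grasp values rest on 1 probe each. In yolk sac another Ncam1 probe gave 0.01 with overlapping groups, and other Grasp probes gave 0.58 and -0.48. Isl1 was not detected on any wild-type yolk sac array and was detected on 3 mutant ones. Its yolk sac value is thus near background, and it was higher in mutants by at least 1.09-fold. Without the library labelled mutant embryo 2, none of the 10 passed (adjusted p 0.0646 to 0.143), with differences between -1.28 and 2.44. With the conceptus as a random block, chosen after seeing the data, all 10 passed.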

How the results depend on the processing

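With n = 2 the calls rest on a spread borrowed from the embryos, and the counts moved widely; where no cause is given, the cause was not tested. Against 143 calls (64 rises, 79 falls), normexp with offset 50 gave 241 (89 and 152), 75th percentile scaling without background correction 55 (35 and 20), median scaling over all probes 601 (25 and 576) and the authors' values 55 (37 and 18). The median of kept probes, added after seeing the data, gave 180 (111 and 69). No filter gave 215 (102 and 113), a trended robust variance 345 (148 and 197), the second arrays alone 202 (80 and 122) and the mean of a gene's probes 111, which reversed Cdc42 to 0.032. In limma 0 genes passed in the yolk sacs alone (1673 at an unadjusted p under 0.05), with the first arrays alone (1820), on leaving out mutant embryo 2 as labelled (2120) and under the replicate block (2401), where the numbers mark no shared litter or day between genotypes. Leaving out 1 yolk sac sample gave 0 to 110 calls, 0 to 62 rises and 0 to 48 falls: 3 without wild type 1, 1 without wild type 2, 110 without mutant 1 and 0 without mutant 2. Bcas3 passed only with median scaling over all probes, at -1.63 (adjusted p = 0.0386), and its adjusted p was 0.0684 to 0.309 elsewhere. The 38 genes whose effect differed between tissues became 0 without mutant embryo 2, 15 with the replicate block, 56 with median scaling over all probes and 212 over kept probes, 143 with offset 50, 116 with the trended robust variance, 81 with no filter, 73 with the conceptus as a random block, 2 with 75th percentile scaling or the authors' values, 0 with probes detected on all 8 yolk sac arrays and 0 to 35 with 1 yolk sac left out. A slide block was not run, since the headers give no slides. The lowest signal counted as detected also differed, at 10 to 12 on the dimmer mutant yolk sac arrays and 16.7 to 21 on the wild-type ones. This limits what low genes can show, and its part in their values was not tested.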
